A study of Mus musculus with 20 samples.

Results

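AV064505 is an antisense RNA gene that lies opposite the matrix metalloprotease gene Mmp7, and the rows of these 2 genes, of 46329 gene rows in the count files, are described here over all libraries. They were chosen by name with earlier results of these data in view: the AV064505 row was picked for its difference between tumors and adjacent tissue, and the Mmp7 row because it lies on the other strand. No threshold was applied. The difference between tumor and adjacent tissue is therefore given for both rows as a description, with no test, and only genotype and the relation between the rows were tested.

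The study asked about Erbb2, an EGF receptor relative with tyrosine kinase activity, in colorectal tumors of ApcMin/+ mice, whose mutant Apc allele leads to intestinal tumors through unchecked Wnt signalling. All mice were C57BL/6J, 100 days old and ApcMin/+ and carried 2 copies of the floxed allele Erbb2tm1Mll (Erbb2 f/f). The Erbb2-deficient mice also carried Tg(Vil1-cre), in which the villin promoter (Vil1) drives cre in epithelial cells of the intestine and not in stroma, muscle or immune cells. Their littermate controls had no cre, so that the genotypes differ by the transgene as well as by Erbb2. RNA of 5 colorectal tumors and 5 samples of adjacent tissue per genotype was sequenced with a stranded mRNA kit. The labels number the replicates within each group and call them biological, and they do not say which tumor and adjacent sample came from 1 mouse. The p-values measure the spread between these libraries. In bulk tissue, fewer cells of a type and less RNA per cell cannot be told apart.

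Mmp7 encodes matrilysin, a small secreted protease that lacks the hemopexin-like domain of most other members of its family and cuts matrix proteins, cell surface proteins and pro-defensins. In the normal intestine it is made by Paneth cells of the small intestine, where it activates alpha-defensins. Normal colonic epithelium makes little of it. Intestinal adenomas make it in the tumor epithelium, and its promoter is known to respond to beta-catenin with TCF and to AP-1 and ETS factors.

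In the GENCODE M21 annotation of build GRCm38, Mmp7 lies on the plus strand of chromosome 9 (chr9:7692090-7699585) with 6 exons and a transcript of 1068 bases. AV064505 lies on the minus strand (chr9:7669429-7695631) with 4 exons and a transcript of 522 bases. The counts were made on build mm39 and carry no coordinates, so these positions serve to show how the genes lie to each other. The exons of the 2 genes meet at 1 place only. Exon 3 of Mmp7, a coding exon (chr9:7695468-7695616, plus strand), and exon 1 of AV064505 (chr9:7695494-7695631, minus strand) share 123 bases, which are printed in capitals because any read that falls there belongs by its strand to 1 gene or the other.
Mmp7 exon 3: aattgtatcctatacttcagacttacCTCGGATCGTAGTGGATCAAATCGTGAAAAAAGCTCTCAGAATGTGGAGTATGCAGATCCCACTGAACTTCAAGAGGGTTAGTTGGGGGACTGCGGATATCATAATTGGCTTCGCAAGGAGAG
AV064505 exon 1: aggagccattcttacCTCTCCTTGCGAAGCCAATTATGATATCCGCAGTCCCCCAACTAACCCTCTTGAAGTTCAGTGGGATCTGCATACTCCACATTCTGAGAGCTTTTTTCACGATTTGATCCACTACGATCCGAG
The capitals of each line are the reverse complement of the capitals of the other. They make up 11.52% of the Mmp7 transcript and 23.56% of the AV064505 transcript. The span of AV064505 also overlaps that of Mmp20, with no shared exon base.

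**Figure D1:**
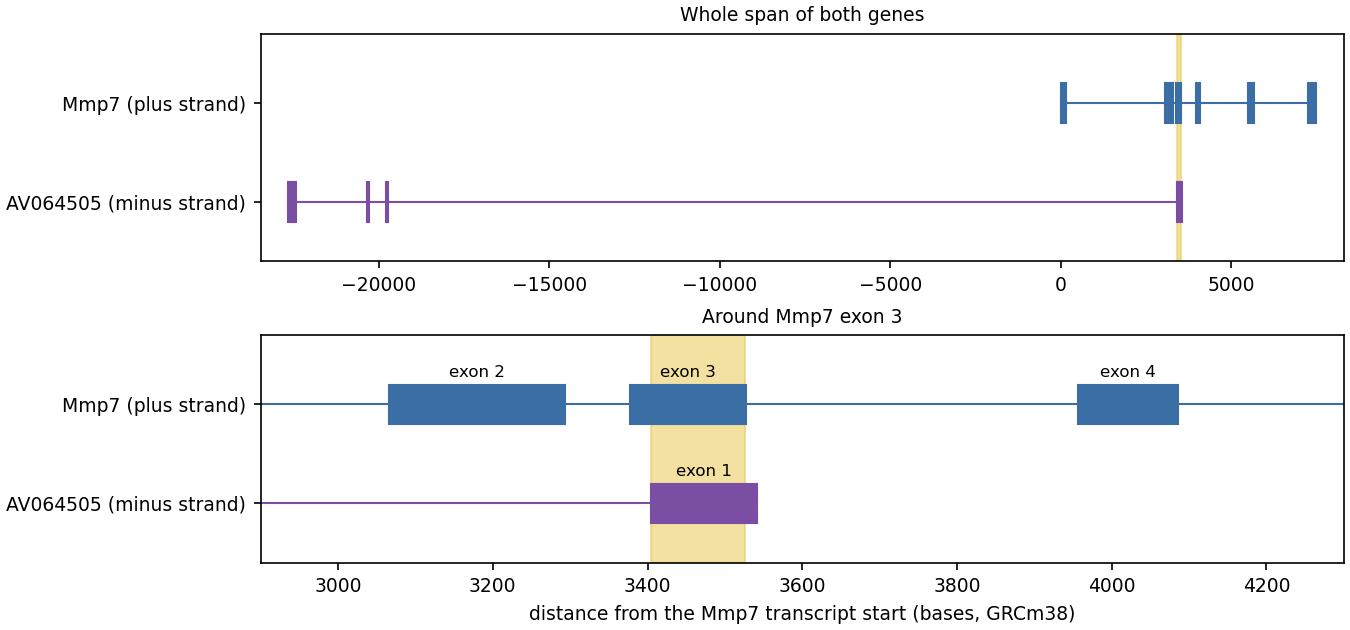
Exons (boxes) and introns (lines) of Mmp7 and AV064505 by distance in bases from the Mmp7 transcript start, for the whole span (upper panel) and around Mmp7 exon 3 (lower panel). The shaded stretch of 123 bases is the only exon overlap of the 2 genes.

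The strand setting of the counting step is not given in the sources used here. Where stranded reads are counted on the opposite strand, Mmp7 reads from the shared stretch of exon 3 fall on the AV064505 row and Mmp7 reads from outside the shared stretch fall on neither row. Reads on genes made up 2.51% to 3.45% of all reads (1071737 to 1944309 counts per library), and 78.6% to 85.1% fell on no counted feature. Which of the 2 genes the counts of either row came from cannot be told apart here, and each symbol names a row of the files, not a measured transcript. This holds for the other rows named too. Beside part of them an opposite gene of GENCODE M21 is given, and rows not so marked may lie opposite one as well.

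The AV064505 row was among the most abundant rows of the tumors and nearly empty in the adjacent tissue. Erbb2-deficient tumors 1 to 5 held 4426, 3206, 3409, 10036 and 16544 counts in it. Control tumors 1 to 5 held 8273, 8, 2604, 8556 and 7441 counts. Adjacent tissue held 8, 3, 1, 3 and 10 counts in the Erbb2-deficient mice and 7, 1, 24, 7 and 6 counts in the controls. The Erbb2-deficient tumors did not overlap with their adjacent tissue. In controls 4 of the 5 tumors lay above all adjacent samples, and control tumor 2 lay within their range.

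Ranked by counts among all rows of its library, the AV064505 row came 17, 33, 28, 10 and 6 in Erbb2-deficient tumors 1 to 5 and 12, 5859, 42, 11 and 11 in control tumors 1 to 5. In adjacent tissue it ranked between 3836 and 13937. It took up to 1.35% of all counts on genes, in Erbb2-deficient tumor 5. The summed rows of the other 22 genes of the matrix metalloprotease family held 509 to 1125 counts in control tumors and 771 to 901 in Erbb2-deficient tumors. The AV064505 row alone was above that sum in 4 of 5 control tumors, in 5 of 5 Erbb2-deficient tumors and in 0 of the adjacent samples. Most of the sum lay in the rows of Mmp24 (opposite BC029722) and Mmp19 (opposite Tmem198b), with means of 436 and 275 counts over all libraries.

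In counts per 1000000 counts of the rows tested, after TMM scaling of the libraries (CPM), the AV064505 row stood at 5501 ± 4157 CPM (SD, n = 5) in Erbb2-deficient tumors and 4525 ± 3270 CPM in control tumors. In adjacent tissue it stood at 3.37 ± 2.28 CPM (Erbb2-deficient) and 7.54 ± 6.50 CPM (control). Without control tumor 2 the control tumors had 5655 ± 2399 CPM (n = 4). The fitted log2 fold change of tumor over adjacent tissue was 10.59 ± 1.26 SE in Erbb2-deficient mice and 9.19 ± 1.18 SE in controls. It was the highest of the 7119 rows that passed the filter on low counts in each genotype, where 27.5% (Erbb2-deficient) and 21.6% (control) of rows differed in either direction at an adjusted p under 0.05. These folds rest on 25 and 45 counts in all adjacent samples together, and the row was picked for them.

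**Figure D2:**
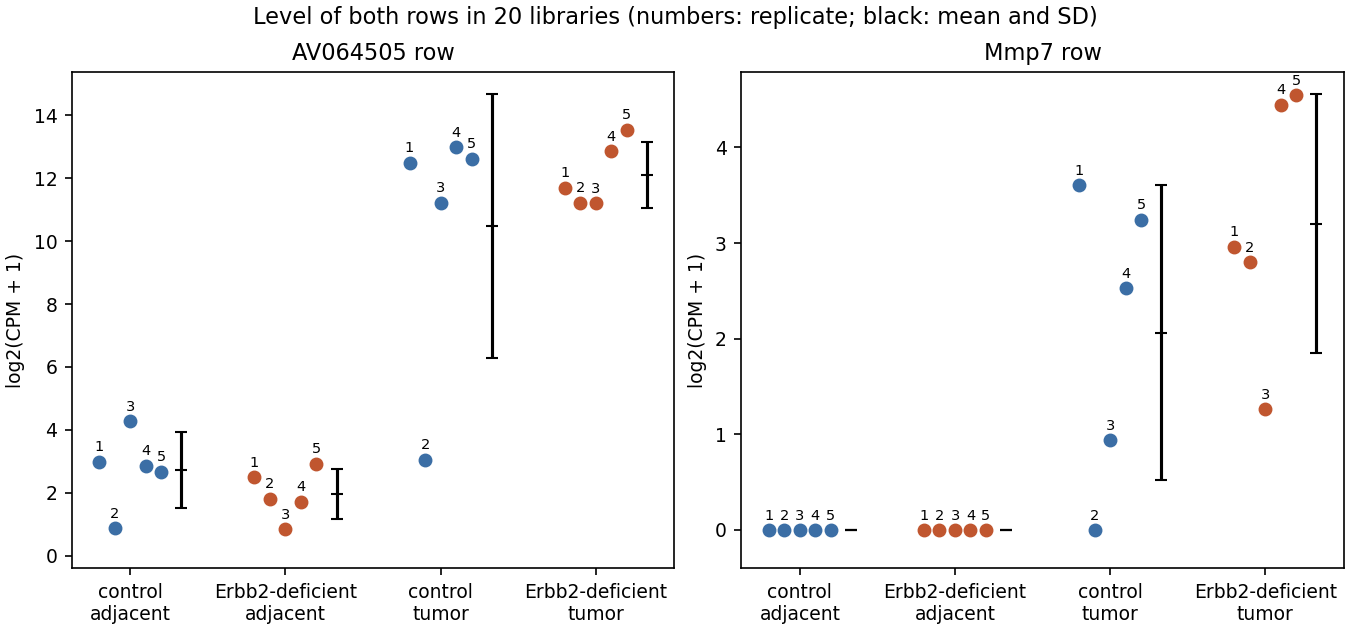
Level of the AV064505 row (left) and of the Mmp7 row (right) in each of the 20 libraries as log2(CPM + 1), by group, with the replicate number over each point and the mean and SD in black. Tumors stood above adjacent tissue in both rows except for control tumor 2, which had 7.26 CPM in the AV064505 row and 0 in the Mmp7 row.

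The Mmp7 row itself held few counts, and all of them were in tumors. Erbb2-deficient tumors 1 to 5 held 9, 8, 2, 28 and 31 counts and control tumors 1 to 5 held 16, 0, 1, 5 and 10 counts. All 10 adjacent samples held 0 counts. The tumors with counts lay above every adjacent sample, and control tumor 2 was again the exception. With a mean of 5.50 counts over the libraries the row did not pass the filter, so of the 2 rows 1 entered the fit across rows.

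The Mmp7 row stood at 11.5 ± 9.48 CPM (SD, n = 5) in Erbb2-deficient tumors and 5.06 ± 4.79 CPM in control tumors. The pooled tumor level was set against 3 counts, the limit that 0 counts in the 5 adjacent libraries of a genotype together allow. The 78 counts of the Erbb2-deficient tumors stood 26.7-fold and the 32 counts of the control tumors 10.5-fold above that limit. These folds allow for counting error in adjacent tissue and not for the spread between tumors, of which control tumor 2 held 0 counts. Per kilobase of transcript, the level of the AV064505 row in Erbb2-deficient tumors was 10539 CPM and that of the Mmp7 row 10.7 CPM. In control tumors these were 8669 and 4.74 CPM. The antisense row thus held by far the more counts for its length.

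Of the counts on both rows together, 0.207% were on the Mmp7 row in Erbb2-deficient tumors (78 of 37699, exact binomial 95% interval 0.164 to 0.258%) and 0.119% in control tumors (32 of 26914, 0.0813 to 0.168%). Single tumors ranged from 0.0586 to 0.278% in Erbb2-deficient mice and from 0 to 0.193% in controls, so the genotypes overlapped. In adjacent tissue the share was 0 of 25 and 0 of 45 counts, which allows a share of up to 12.0% and 6.67%. These intervals cover counting error only. A share as low as that of the tumors was not detectable in adjacent tissue at this depth.

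Genotype was not part of the choice of rows and was tested. For the AV064505 row the log2 fold change of Erbb2-deficient over control was 0.28 ± 0.81 SE in tumors (edgeR adjusted p = 0.937) and -1.12 ± 1.11 SE in adjacent tissue (adjusted p = 0.938). The adjacent value rests on 25 (Erbb2-deficient) and 45 (control) counts. The row passed the filter only through the tumors and failed it on the adjacent groups alone. The adjacent test therefore cannot decide whether genotype mattered there. In tumors the groups overlapped over most of their range. The highest control tumor (8146 CPM) lay between the fourth and the fifth of the Erbb2-deficient tumors (7470 and 11919 CPM). In adjacent tissue the ranges overlapped as well, at 0.794 to 6.62 CPM in Erbb2-deficient mice and 0.840 to 18.4 CPM in controls. The edgeR test called 0 of 7119 rows (0%) for genotype in either tissue, with 817 rows in tumors and 418 in adjacent tissue at an unadjusted p under 0.05. DESeq2 called 26 rows in tumors and 5 in adjacent tissue, with AV064505 in neither.

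The sign of the tumor value rested on single libraries. It was -0.02 without control tumor 2 (adjusted p = 0.995), -0.21 without Erbb2-deficient tumor 5 (adjusted p = 0.954) and -0.26 without control tumors 2 and 3 (adjusted p = 0.884). DESeq2 gave 0.28 ± 0.85 SE (adjusted p = 0.947). The spread between libraries was wide, with an SD of 1.04 in log2(CPM + 1) among Erbb2-deficient tumors and 4.21 among control tumors, or 0.768 without control tumor 2. An exact two-sided permutation test of log2(CPM + 1) gave a difference of 1.64 (p = 0.651) in tumors and -0.78 (p = 0.254) in adjacent tissue. With 252 arrangements the smallest p this test can give is 0.00794.

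For the Mmp7 row, Erbb2-deficient tumors were 6.40 CPM above control tumors, which did not pass an exact two-sided permutation test (p = 0.238, n = 5 and 5). It was 3.69 CPM without Erbb2-deficient tumor 5 and 4.06 CPM without Erbb2-deficient tumor 4. Both adjacent groups were at 0 counts. Fitted without the filter on low counts, the row differed by 1.11 ± 0.75 SE on the log2 scale between tumor genotypes (edgeR adjusted p = 0.687). The test of whether the tumor difference of the AV064505 row depended on genotype gave an interaction of 1.40 ± 1.37 SE on the log2 scale (adjusted p = 1). This test called 0 of 7119 rows (0%), with 290 rows at an unadjusted p under 0.05, and DESeq2 called 0. For AV064505 the interaction draws on the same few adjacent counts as the adjacent genotype value, and it has the same limit. Without control adjacent sample 3 the interaction was 0.76 and the adjacent genotype value -0.46, and the interaction was 0.93 without Erbb2-deficient tumor 5. No genotype difference in either row passed its test.

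Control tumor 2 stood apart in its cell markers as well as in both rows. The summed level of 9 epithelial marker rows was 18.2 CPM in it, with Epcam, Krt8, Krt18, Krt19, Cdh1 and Muc2 at 0 counts, against 271 to 969 CPM in the other 9 tumors. The summed level of 12 lymphoid marker rows was 1214 CPM, against 370 to 599 CPM. The Ciita row (opposite Dexi) made up 635 CPM of this and the Cxcr5 row (opposite Bcl9l) 129 CPM. In the other control tumors Ciita averaged 436 CPM. H2-Ab1 held 162.5 CPM, Cd74 141 CPM and Cd79a 39.0 CPM, against means of 9.53, 6.86 and 2.22 CPM in the other control tumors. Ms4a1 was lower, at 3.63 against 5.52 CPM. Of the 19 Paneth cell marker rows control tumor 2 held 10.9 CPM in all, against 47.5 to 195 CPM in the other tumors. The part of this makeup in the low AV064505 count was not tested. None of the 9 epithelial rows passed the edgeR test of tumor against adjacent tissue in either genotype, with 0 (controls) and 1 (Erbb2-deficient) at an unadjusted p under 0.05. In adjacent tissue they summed to 373 to 948 CPM (control) and 531 to 994 CPM (Erbb2-deficient), where the AV064505 row was at most 18.4 CPM. Of all rows tested, 10.7% were higher and 10.9% lower in control tumors, and 13.0% and 14.5% in Erbb2-deficient ones. Of 11 smooth muscle rows, 10 fell in control and 9 in Erbb2-deficient tumors. The 11 rows summed to 166 to 534 CPM in tumors and 1078 to 2574 CPM in adjacent tissue. Most of the tumor sums was the Tagln row (opposite Pcsk7), at 142.5 to 482 CPM in control and 150.8 to 227.7 CPM in Erbb2-deficient tumors. Of the fibroblast rows 4 of 7 were tested, with 2 higher in Erbb2-deficient tumors and 0 in controls. Of the lymphoid rows 5 of 12 were tested, with 1 higher and 1 lower in Erbb2-deficient tumors and 0 in controls, and 1 of 7 myeloid rows was tested and did not pass. The lower lymphoid row, Ms4a1 (adjusted p = 0.0432), lost its call in 15 of 27 alternatives, among them each that left out an Erbb2-deficient tumor and both replicate blocks. The part of this difference in tissue makeup in the values of both rows was not tested.

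Among the 10 tumors the levels of the 2 rows moved together. In log2(CPM + 1), Pearson's r was 0.765 (permutation p = 0.00065, adjusted over 6 tests 0.0039) and Spearman's rho 0.758 (p = 0.0156, adjusted 0.0311). Without control tumor 2, r was 0.782 (exact permutation p = 0.0136, adjusted 0.0311) and rho 0.667 (p = 0.0589, adjusted 0.0707). Without the 2 tumors farthest from the median of the AV064505 row, control tumor 2 and Erbb2-deficient tumor 5, r was 0.703 (exact permutation p = 0.0578, adjusted 0.0707) and rho 0.524 (p = 0.197). The size of r changed little, and with 8 tumors its test was no longer passed. A high correlation with AV064505 was not particular to the Mmp7 row. Over the 10 tumors the 10 rows of highest rho, given below, had 0.8545 to 0.964, and the median of 5036 rows was 0.042. In log2 CPM with a prior count of 2, Epcam had an r of 0.928 over the 10 tumors and -0.074 without control tumor 2. No correlation was computed within a genotype, which holds 5 tumors. Erbb2-deficient tumors 5 and 4 were the highest of their group in both rows, and the lowest Mmp7 counts above 0 were in control tumor 3 and Erbb2-deficient tumor 3.

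**Figure D3:**
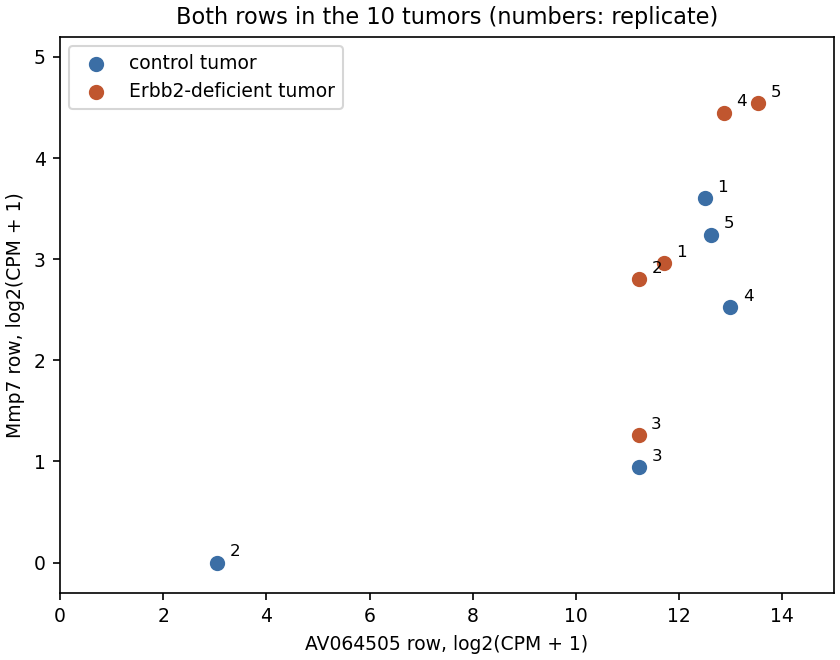
Level of the Mmp7 row against that of the AV064505 row in the 10 tumors, both as log2(CPM + 1), coloured by genotype and numbered by replicate. Control tumor 2 lies alone at the lower left, and the other 9 tumors spread over 0.92 to 22.3 CPM of the Mmp7 row.

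The neighbourhood of Mmp7 holds a cluster of metalloprotease genes, and the AV064505 row stood out there too. Of the 10 annotated genes on each side, Gm47616, Gm19212, Gm20416 and Gm45494 had no row of that name. The AV064505 row had a mean of 3229 counts per library. The other rows had means of at most 11.7 counts (Gm10709), followed by 11.4 for Yap1, the transcriptional co-activator of the Hippo pathway. The row of Mmp10, which encodes stromelysin-2, held 0 to 6.66 CPM in control tumors, 2.10 to 7.44 CPM in Erbb2-deficient tumors and 0 in all adjacent samples. The row of the neutrophil collagenase Mmp8 held up to 9.07 CPM in control tumors and up to 12.2 CPM in Erbb2-deficient ones, with 1 count in all adjacent samples together. Mmp3, Mmp20, Mmp1a, Mmp27 and Mmp1b had at most 3 counts in any library. None of these metalloprotease rows passed the filter.

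The 250 bases before the Mmp7 start were searched for the motifs of factors known to act on this gene, since its own row and the row opposite were high in the same tumors. The stretch is from the RefSeq promoter table of GRCm38.p6 (chr9:7691840-7692089, plus strand), and capitals mark the matches.
Mmp7 promoter: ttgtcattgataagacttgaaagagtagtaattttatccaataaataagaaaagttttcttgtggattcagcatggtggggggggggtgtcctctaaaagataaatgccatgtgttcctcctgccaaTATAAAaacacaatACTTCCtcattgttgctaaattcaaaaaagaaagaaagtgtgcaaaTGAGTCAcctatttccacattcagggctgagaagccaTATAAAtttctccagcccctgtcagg
The capitals hold, in order, a TATA box (TATAAA) at -123 from the start, the ETS core GGAAGT on the minus strand at -109, the AP-1 motif TGANTCA at -63 and a second TATA box at -26. Both strands were searched in windows from 250 bases before to 50 after each start. The AP-1 motif was in 7.81% of 32851 such windows, GGAAGT in 23.8% and TATAAA in 13.6%. The TCF/LEF motif ATCAAAG, in 3.73% of windows, matched 5 bases after the start and so outside the printed stretch. A match is a run of letters and not a measured site. The table lists 2 starts for Mmp7, of which 1 is shown, and it has no entry for AV064505. In the window of the other start the TCF/LEF motif matched at -247, and the AP-1, ETS and TATA motifs had no match.

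Of 13 rows of factors known to act at this promoter, 9 were tested. In Erbb2-deficient mice 4 were higher and 0 lower in tumors than in adjacent tissue, where 13.0% of all rows were higher and 14.5% lower. They were Jun, a subunit of AP-1 (log2 fold change 1.89 ± 0.48 SE, edgeR adjusted p = 0.00598, opposite Junos), Ets2 (1.63 ± 0.43 SE, adjusted p = 0.00825), the AP-1 subunit Fosl1 (1.18 ± 0.27 SE, adjusted p = 0.00287, opposite Ccdc85b) and Ctnnb1, which encodes beta-catenin (1.24 ± 0.36 SE, adjusted p = 0.0133, opposite Ulk4). In controls 0 of 9 passed, where 10.7% of all rows were higher and 10.9% lower, with 3 at an unadjusted p under 0.05. The median log2 fold change of the 9 rows was 1.05 in Erbb2-deficient mice and 0.24 in controls, and over all rows -0.06 and 0.07.

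The control values of these rows depended on single libraries. Without control tumor 2, Ets2 (1.54 ± 0.46 SE, adjusted p = 0.0169) and Jun (1.48 ± 0.44 SE, adjusted p = 0.0161) passed in controls too. Ets2 also passed without control tumor 3 (adjusted p = 0.0484) and Jun without control adjacent sample 5 (adjusted p = 0.0398). For none of the 9 did the interaction of genotype and tissue pass the edgeR test, with 1 at an unadjusted p under 0.05. Between tumor genotypes none passed either, with 2 at an unadjusted p under 0.05. Levels were low, at 19.95 ± 5.03 CPM for Ets2 and 34.8 ± 10.5 CPM for Ctnnb1 in Erbb2-deficient tumors.

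Of the rows of 22 other matrix metalloproteases, 6 passed the filter (Mmp2, Mmp14, Mmp15, Mmp19, Mmp24 and Mmp28). Mmp14, which encodes the membrane-bound activator of pro-MMP2, rose in Erbb2-deficient tumors from 19.8 ± 10.1 to 51.4 ± 5.94 CPM (n = 5 each), which is 1.36 ± 0.42 SE on the log2 scale (edgeR adjusted p = 0.0208). The tumors (44.0 to 58.9 CPM) did not overlap with the adjacent samples (9.84 to 33.2 CPM). In controls the Mmp14 row had 26.1 ± 16.3 CPM in tumors and 18.3 ± 5.80 CPM in adjacent tissue, a log2 fold change of 0.52 ± 0.43 SE that did not pass (adjusted p = 0.410). Control tumor 2 was the lowest there, at 4.54 CPM, and without control tumors 2 and 3 the value was 1.01 ± 0.35 SE (adjusted p = 0.0315). The other 5 rows had log2 fold changes of -0.36 to 0.73, and none passed in either genotype.

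The tested family rows had smaller log2 fold changes than the AV064505 row. That row was picked for this contrast and was the highest of 7119 rows, so any list would lie below it. The gap therefore says nothing particular about the family, and the family rows that did not pass the filter are not covered. The median log2 fold change of these 6 rows was 0.40 in Erbb2-deficient mice and 0.12 in controls, against 10.59 and 9.19 for AV064505. The row of Tmem198b, which lies opposite Mmp19, rose in Erbb2-deficient tumors by 1.26 ± 0.34 SE on the log2 scale (edgeR adjusted p = 0.00868), while the Mmp19 row did not pass (0.35 ± 0.26 SE, adjusted p = 0.334). The row of 1700020L24Rik, opposite Mmp28, was tested and did not pass. The rows of Chchd10 (opposite Mmp11), BC029722 (opposite Mmp24) and Gm11860 (opposite Mmp16) did not pass the filter, nor did Mmp1b and Mmp12, which lie opposite each other.

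**Figure D4:**
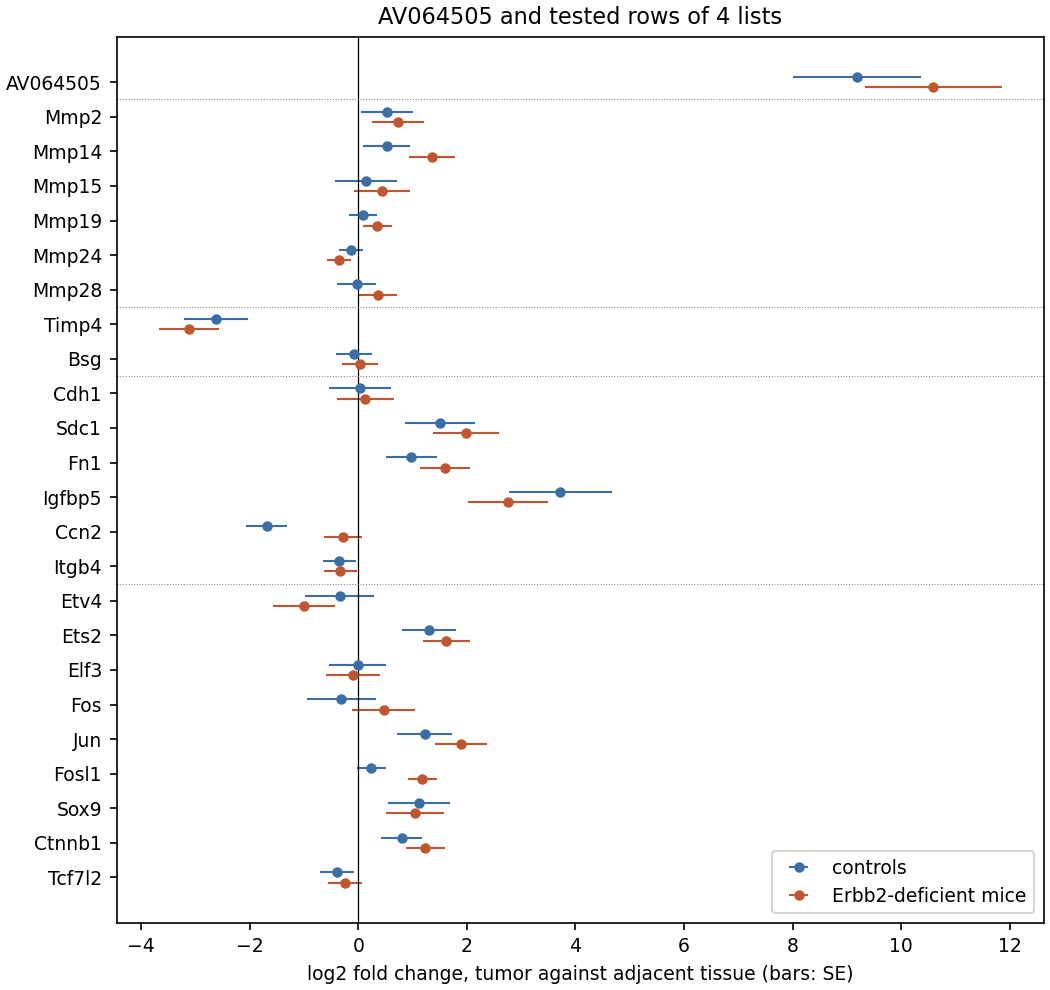
Log2 fold change of tumor over adjacent tissue with its SE, in controls and in Erbb2-deficient mice, for the AV064505 row and, between dotted lines, the tested rows of the matrix metalloprotease family, of their inhibitors and inducer, of Mmp7 substrates and docking partners, and of factors of the Mmp7 promoter. AV064505, picked for this contrast, lies at 9.19 and 10.59, and the listed rows lie between -3.12 and 3.72.

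Of 7 rows of metalloprotease inhibitors and their inducer, 2 were tested. The row of Timp4, a tissue inhibitor of metalloproteases, fell in tumors of both genotypes, with log2 fold changes of -3.12 ± 0.56 SE in Erbb2-deficient mice (edgeR adjusted p = 0.000421) and -2.62 ± 0.59 SE in controls (adjusted p = 0.00367). In tumors it stood at 1.77 ± 1.41 CPM (Erbb2-deficient) and 1.78 ± 1.49 CPM (control), against 16.1 ± 2.07 and 11.2 ± 5.73 CPM in adjacent tissue. The groups did not overlap in either genotype, but in controls they nearly met. There the highest tumor, control tumor 2, was at 3.631 CPM and the lowest adjacent sample at 3.825 CPM, both low levels. In Erbb2-deficient mice these were 3.602 and 14.55 CPM. The row lies opposite Syn2, and smooth muscle markers fell in the same tumors. The part of that change in the Timp4 values was not tested. Bsg, which encodes the inducer basigin, did not pass in either genotype (0.03 ± 0.33 and -0.08 ± 0.33 SE). Of the rows opposite an inhibitor gene, Syn3 (opposite Timp3) fell in Erbb2-deficient tumors by 0.80 on the log2 scale (edgeR adjusted p = 0.0216), and Syn1 (opposite Timp1) did not pass.

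Of 16 rows of known Mmp7 substrates and docking partners, 6 were tested. In Erbb2-deficient mice 3 were higher and 0 lower in tumors (13.0% and 14.5% of all rows). They were Igfbp5, a binding protein of insulin-like growth factors (2.76 ± 0.73 SE, edgeR adjusted p = 0.00792), the heparan sulfate proteoglycan Sdc1 (1.98 ± 0.61 SE, adjusted p = 0.0205) and fibronectin, Fn1 (1.60 ± 0.45 SE, adjusted p = 0.0125, opposite Apol7d). Sdc1 no longer passed without Erbb2-deficient adjacent sample 5 (adjusted p = 0.0504). In controls 1 was higher and 1 lower (10.7% and 10.9% of all rows). Igfbp5 rose there by 3.72 ± 0.94 SE (adjusted p = 0.00832), from 0.696 ± 0.398 to 10.3 ± 6.37 CPM. The row of the matricellular protein Ccn2 fell by 1.69 on the log2 scale (SE 0.37, adjusted p = 0.00312, opposite Gm15270). The median of the 6 rows was 0.87 in Erbb2-deficient mice and 0.51 in controls, against -0.06 and 0.07 over all rows.

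In controls Sdc1 (1.505 ± 0.65 SE, edgeR adjusted p = 0.103) and Fn1 (0.98 ± 0.47 SE, adjusted p = 0.141) missed the threshold. Sdc1 passed without control tumor 2 (1.80 ± 0.48 SE, adjusted p = 0.00849), where its row was at 0, and Fn1 passed without control adjacent sample 1 (1.41 ± 0.47 SE, adjusted p = 0.0448). Ccn2 had -0.28 ± 0.36 SE in Erbb2-deficient mice (adjusted p = 0.591). For none of the 6 rows did the interaction of genotype and tissue pass, with 1 at an unadjusted p under 0.05. The E-cadherin row Cdh1, a cell surface substrate, had 0.13 and 0.04 on the log2 scale in Erbb2-deficient and control mice and passed in neither.

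Wnt target rows and 1 Paneth cell row were higher in tumors than in adjacent tissue in both genotypes. Of 20 Wnt target rows, 12 were tested and 9 rose in Erbb2-deficient mice (13.0% of all rows) and 8 in controls (10.7% of all rows), with 0 lower. Lef1 and Rnf43 parted from the AV064505 pattern in control tumor 2, where they were highest, at 66.3 and 47.2 CPM. The other tested Wnt target rows were lowest there, as AV064505 was. Nkd1, Dkk2, Wif1 and Prox1 were at 0, Axin2 at 1.82 CPM and Notum at 3.63 CPM. Among the Wnt target rows of smallest p were Notum, a secreted Wnt inhibitor whose row lies opposite Notumos, and Dkk2. Notum had 8.34 ± 1.06 SE in Erbb2-deficient mice (edgeR adjusted p = 1.95e-05) and 7.07 ± 1.01 SE in controls (adjusted p = 9.76e-05). Dkk2 had 6.64 ± 0.93 SE (adjusted p = 5.48e-05) and 4.29 ± 0.86 SE (adjusted p = 0.00168), in the same order. The others were Nkd1 and Prox1 in Erbb2-deficient mice and Lef1 and Prox1 in controls. Of 19 Paneth cell rows, 5 were tested and 1 rose, Lyz1, which encodes lysozyme. In tumors it held 39.2 ± 30.0 CPM (Erbb2-deficient) and 16.0 ± 14.1 CPM (control), against 1 count in all adjacent samples of each genotype (log2 fold changes of 7.35 ± 0.94 SE, edgeR adjusted p = 2.22e-05, and 5.90 ± 1.0 SE, adjusted p = 0.000435). Lyz1, and Wif1, Prox1 and Dkk2 of the Wnt target rows, held at most 3 counts over all adjacent samples of a genotype. They passed the filter only through the tumors, so a call in the other direction was hardly open to them. The alpha-defensin rows, whose products Mmp7 processes in Paneth cells, did not pass the filter. Defa24 held 8 counts in control and 41 in Erbb2-deficient tumors, Defa17, Defa21, Defa22 and Defa30 held at most 4 counts in any library, and all 5 were at 0 in adjacent tissue. Defa3, Defa5, Defa20, Defa23 and Defa26 were at 0 in every tumor and adjacent sample.

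Within the tumors, however, the rows that followed AV064505 most closely were others. Spearman's rho was computed over the 10 tumors between AV064505 and 5036 rows whose mean over the tumors reached 5 CPM, and the 10 named rows of highest rho are given as a description, with no test. The points share libraries and depth, and control tumor 2 is the lowest of them in AV064505, so values without it are given too. LOC118567803 had the highest rho (0.964, and 0.95 without control tumor 2). It held 14.4, 4.48, 2.10, 15.6 and 39.6 CPM in Erbb2-deficient tumors 1 to 5 and 16.8, 0, 11.04, 19.99 and 18.6 CPM in control tumors 1 to 5. Its order over the tumors was close to that of AV064505, with the top in Erbb2-deficient tumor 5 and 0 in control tumor 2. It rose in tumors of both genotypes, by 4.02 (edgeR adjusted p = 0.00305) and 3.81 (adjusted p = 0.00839) on the log2 scale in Erbb2-deficient and control mice. GENCODE M21 has no gene of this name.

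Kcne3, a potassium channel subunit of the colonic crypt epithelium, came next with a rho of 0.952 and a Pearson's r of 0.995 (0.933 and 0.960 without control tumor 2). Its row, which lies opposite Gm34821, held 37.8, 29.8, 23.0, 59.5 and 68.4 CPM in Erbb2-deficient tumors 1 to 5. Control tumors 1 to 5 held 48.2, 0, 23.9, 50.5 and 53.4 CPM. Unlike AV064505 it was about as high in adjacent tissue, at 41.2 CPM (Erbb2-deficient) and 36.9 CPM (control), and its tumor difference did not pass (0.09 and -0.06 on the log2 scale, edgeR adjusted p = 0.930 and 0.953). The likeness over tumors thus did not extend to the adjacent tissue.

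**Figure D5:**
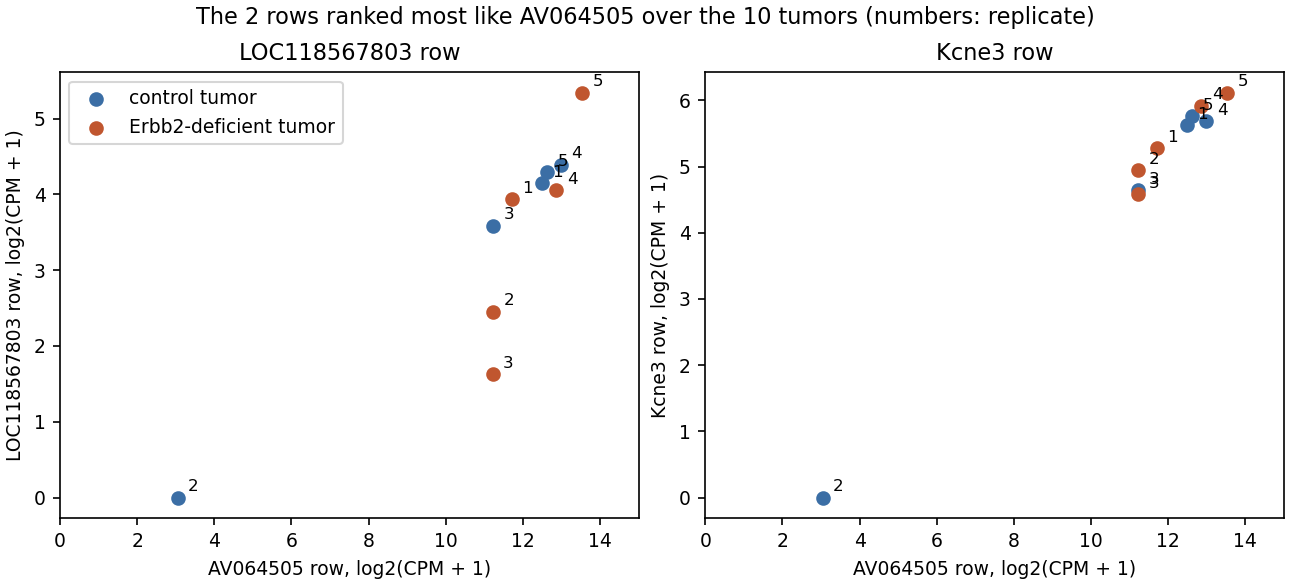
Level of the LOC118567803 row (left) and of the Kcne3 row (right) against that of AV064505 in the 10 tumors, as log2(CPM + 1), coloured by genotype and numbered by replicate. Both rows were at 0 in control tumor 2, and over the other 9 tumors Spearman's rho was 0.95 and 0.933.

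The other 8 rows were Poglut3 (rho 0.915), Phldb1 (0.903), Ceacam16 and Naalad2 (0.891 each), Heg1 (0.867), and Cdc73, Kctd2 and Vps54 (each at about 0.855). The row next in rho had 0.842. Of these 8, Cdc73, a subunit of the PAF1 complex whose row lies opposite B3galt2, rose in Erbb2-deficient tumors (1.55 on the log2 scale, edgeR adjusted p = 0.0211), and the others passed in neither genotype. Among the listed rows, Mmp28 had 0.746, Lyz1 0.709, Notum and Mmp14 0.042 each, Prox1 -0.067 and Lef1 -0.733. The 12 Wnt target rows had a median rho of 0.082, against 0.042 over all 5036 rows compared. Notum, Prox1 and Lef1 were thus high in the same tissue as AV064505 without its order among the tumors. Their Pearson's r with AV064505 was 0.861, 0.772 and -0.607, in the same order. Without control tumor 2, r was 0.275, 0.211 and -0.017, and rho was -0.317, -0.467 and -0.633. The Notum and Prox1 rows were lowest in control tumor 2, as AV064505 was, and their high r rested largely on that tumor.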

How the data were processed

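Each file the authors deposited holds unnormalized read counts per gene symbol for 1 library. The tools named per the submitters' processing notes are Trimmomatic, HISAT2 2.2.1, HTSeq 2.0.2 and DESeq2, with build mm39. The role of each, the annotation and the strand setting: not given in the sources used here. All 20 files list 46329 genes, 18657 of them without a count in any library. The 5 summary rows were left out.

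Rows were filtered with filterByExpr (minimum count 10, 7119 rows kept), scaled with TMM and fitted as 4 group means over all 20 libraries with edgeR 4.0.16 (robust quasi-likelihood, R 4.3.3), and p-values were adjusted by Benjamini-Hochberg over all rows at 0.05. The SE beside an edgeR value is the absolute log2 fold change divided by the square root of the quasi-likelihood F statistic. It is not a standard error given by the fit, and the SE of an interaction does not follow from those of its parts. CPM divides by the TMM-scaled library size over the rows tested. Plots and the relation of the 2 rows used log2(CPM + 1), and the likeness over tumors used log2 CPM with a prior count of 2. Exon overlaps, sequences and promoter windows were read from GENCODE M21 on GRCm38 and a RefSeq table. On simulated counts the tumor genotype test (6807 rows) called 18 of 100 rows changed 2-fold and 87 of 100 changed 4-fold, with 4 false calls. The changed rows were drawn from the more abundant rows, and apart from these changes the groups had equal means. The shares called do not give the power for AV064505 itself, whose spread was wide.

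The members and lists were chosen with earlier results of these data known. Named rows were AV064505, Mmp7, the 10 annotated genes on each side, rows opposite a family or inhibitor gene, the 10 rows most like AV064505 over tumors (highest rho, symbols of the form Gm with a number or Rik skipped), and per list up to 6 rows past the threshold, otherwise the 4 of smallest p per direction. Lists for epithelium, lymphoid, smooth muscle, myeloid and fibroblast markers were used to describe the libraries. Alternatives were DESeq2 1.42.0, other scaling and filters, replicate blocks and left-out libraries.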

Additional observations from a re-analysis of the deposited data

Results flagged for a closer look

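Control tumor 2 lay far from the other 4 control tumors in the AV064505 row. Its level was 3.05 in log2(CPM + 1), and the nearest other control tumor was at 11.23, a gap of 0.822 of the range of the group, above Dixon's 95% critical value of 0.71 for 5 samples. Chance alone passes this critical value in about 1 in 20 groups where the values are normally distributed. The same library held 0 counts in the Mmp7 row and 18.2 CPM in the 9 epithelial marker rows together, and the part of its makeup in the low value was not tested.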

How the results depend on the processing

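For AV064505, the tumor difference stayed at 8.76 to 9.84 (controls) and 10.10 to 10.99 (Erbb2-deficient) on the log2 scale in all 29 alternatives run for each. Genotype in adjacent tissue (27 alternatives, -1.52 to -0.46) and the interaction (28, 0.76 to 1.94) kept their sign and did not pass, with the values nearest 0 without control adjacent sample 3. The Mmp7 tumor genotype difference ranged from 3.69 to 8.92 CPM with 1 library left out. Genotype in tumors reversed in 3 of 28, at -0.02 without control tumor 2, -0.21 without Erbb2-deficient tumor 5 and -0.26 without control tumors 2 and 3, and ranged from -0.21 to 0.61 with 1 library left out. No alternative gave an adjusted p under 0.816 for it. Deviations of same-numbered tumor and adjacent libraries correlated at -0.12 to 0.37 in controls (3 of 5 best with their own number) and -0.016 to 0.23 in Erbb2-deficient mice (1 of 5), so the numbers were not taken as pairs. With the number as a replicate block the tumor genotype value was 0.70 (adjusted p = 0.816), and with a replicate block no call on either row or on the family rows changed. Over all rows edgeR called 0 for genotype in each tissue, and DESeq2 called 26 in tumors and 5 in adjacent tissue. Of the 6 family rows tested, 0 were called in controls and 1 in Erbb2-deficient mice, where 21.6% and 27.5% of all rows were called. With no filter it was 2 and 5 of 20 rows tested, and without control tumors 2 and 3 it was 2 and 2 of 7. The number of rows tested thus differed, and the share called over all rows is not given for these alternatives. Genotype in adjacent tissue fitted on those groups alone gave no AV064505 value, since the row did not pass the filter there. Depth limits the Mmp7 row, at 0 to 31 counts, and both rows in adjacent tissue.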
